A study of Mus musculus with 12 samples.

Results

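Mitochondrial ribosomal proteins are the nuclear-encoded protein subunits of the ribosome inside mitochondria, and their mRNA levels are described here in hind limb muscle and in heart of mice without thymidine kinase 2 (Tk2) and of normal mice. The members are the genes whose symbol begins with Mrpl or Mrps followed by a digit and that have a probe set carrying no other symbol, each read from its brightest probe set. They are 74 of the 18820 genes measured this way, 46 with a large subunit symbol (Mrpl) and 28 with a small subunit symbol (Mrps). The reference annotation holds 78 protein-coding genes whose symbols fit the rule, and the remaining 4 (Mrpl24, Mrpl43, Mrpl53 and Mrps6) share their probe sets with another gene. Whole-transcript arrays (Affymetrix Mouse Gene 1.1 ST) were hybridised with total RNA of 12 tissue samples from mice at 11 days of age, all on the C57BL/6 background. The groups, of 3 arrays each, were hind limb skeletal muscle from Tk2-/- and from Tk2+/+ mice, and heart from Tk2-/- and from Tk2+/+ mice. No drug or diet was named for any group, and the knockout was not described as limited to a tissue, so heart and muscle are both read in animals that lack the enzyme elsewhere too. Each array held the RNA of a different mouse within its group. The methods name 3 different mice per genotype for both tissues. That may mean the same mice, but which muscle and heart arrays share a mouse was not given.

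The mitochondrial ribosome translates the few mRNAs that are made from mitochondrial DNA, all of which code for respiratory chain and ATP synthase subunits. Its RNAs come from mitochondrial DNA, whereas its proteins are made in the cytosol from nuclear mRNAs and imported; the small subunit binds and decodes the mRNA, and the large subunit joins the amino acids. A good part of the proteins have no bacterial counterpart. Tk2 phosphorylates thymidine and deoxycytidine in mitochondria and so supplies nucleotides for mitochondrial DNA synthesis in tissues with few dividing cells. In people, inherited defects of MRPL3, MRPL44 and MRPS22 are among the known causes of infantile cardiomyopathy.

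A value is the signal of a probe set on a linear intensity scale, and a log2 fold change is the difference between group means of log2(signal + 16), which understates the change of dim genes. A member is called higher or lower where the adjusted p of limma, corrected by the Benjamini-Hochberg method over all 18820 genes, is under 0.05. Signals of different genes were not compared, because probe sets differ in brightness. The mean signal of the whole array lay between 146.7 and 168.4 on the Tk2-/- heart arrays, against 227.4 to 242.6 on the Tk2+/+ heart arrays. On the muscle arrays it lay between 224.9 and 245.9 in Tk2-/- mice and between 201.8 and 252.4 in Tk2+/+ mice. How the deposited values were scaled between arrays was not given, so the counts and most named values are also given after quantile normalization, which gives all arrays of a tissue (or all 12 arrays, for comparisons between tissues) the same distribution of values. In heart, the median change over all genes was −0.28 (log2) on the deposited signals and 0.00 after quantile normalization, and deposited differences in heart are to be read against that shift. The Tk2 probe set had signals of 64.7, 44.1 and 48.7 in Tk2-/- muscle, against 62.9, 68.5 and 63.1 in Tk2+/+ muscle (log2 fold change −0.25, adjusted p = 0.208), and of 30.1, 46.2 and 31.7 in Tk2-/- heart, against 70.2, 73.6 and 81.8 in Tk2+/+ heart (−0.82, adjusted p = 7.62e-05). Whether this probe set lies in the disrupted part of the gene was not given, so it does not check the genotype labels. All 11 skeletal muscle fibre markers had mean signals above 16 in both muscle groups and all 10 cardiomyocyte markers in both heart groups. In the other tissue, 3 fibre markers in Tk2-/- heart, 2 in Tk2+/+ heart and 5 cardiomyocyte markers in each muscle group lay under 16. This cut alone therefore does not tell the tissues apart. The fibre markers summed to 54426 to 72968 in Tk2+/+ muscle and to 7536 to 7788 in Tk2+/+ heart. In Tk2-/- mice the sums were 62256 to 67695 and 4171 to 4849. Xist, which is transcribed in female cells, had signal on 2 of 3 Tk2-/- muscle arrays, 1 of 3 Tk2+/+ muscle arrays, 3 of 3 Tk2-/- heart arrays and 2 of 3 Tk2+/+ heart arrays. If the labels hold, the muscle and heart arrays of a genotype were therefore not all from the same mice. The methods can be read otherwise, and whether an array was mislabelled was not tested. Sex was not in the labels, and with Xist as a covariate no count of members given below moved by more than 1.5 times. These are bulk tissues, in which fewer cells of a type and less RNA per cell cannot be told apart. The number of arrays limits the precision, and the standard error of a genotype contrast was between 0.11 and 0.17 (log2) over the members.

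RefSeq promoters (mouse build GRCm38.p6, 250 bases before to 50 bases after the start) were found for 65 members, with several windows for 3 of them. They were searched on both strands for the binding motifs of factors known to regulate nuclear genes of mitochondrial proteins, namely CGCANGCG for NRF1, CCGGAAGT for the ETS family that includes the GABP complex, and AAGATGGC for YY1. NRF1 letters were present in 19 of the 65 members (29.2%), against 13.7% of 14749 array genes and 9.22% of all 27025 genes with a promoter. ETS letters were present in 11 (16.9%), against 6.07% of array genes and 4.31% of all genes, and YY1 letters in 12 (18.5%), against 3.82% and 3.19%. At least 1 motif was present in 36 members (55.4%), against 21.2% of array genes and 15.1% of all genes, in 24 of 40 large subunit members (60.0%) and in 12 of 25 small subunit members (48.0%). The promoters below are of members on which the results turn, with motif letters in capitals and the rest in lower case. Mrps30 (chr13:118387203-118387502 on the minus strand), Mrpl9 (chr3:94443086-94443385 on the plus strand) and Mrps9 (chr1:42850983-42851282 on the plus strand) were higher in Tk2-/- muscle. Mrpl45 (chr11:97315466-97315765 on the plus strand) had the largest fall of any member in Tk2-/- heart, and Mrpl18 (chr17:12916042-12916341 on the minus strand) fell in both tissues. Mrps27 (chr13:99344536-99344835 on the plus strand) shows all 3 motifs in 1 window. Mrpl46 (chr7:78783040-78783339 on the minus strand) starts 42 bases from another member, Mrps11, on the opposite strand.
Mrps30: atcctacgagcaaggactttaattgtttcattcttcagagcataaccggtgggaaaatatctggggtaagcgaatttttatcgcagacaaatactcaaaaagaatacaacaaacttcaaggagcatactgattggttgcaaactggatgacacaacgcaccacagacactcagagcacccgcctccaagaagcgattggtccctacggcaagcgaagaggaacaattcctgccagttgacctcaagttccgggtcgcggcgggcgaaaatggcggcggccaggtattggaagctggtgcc
Mrpl9: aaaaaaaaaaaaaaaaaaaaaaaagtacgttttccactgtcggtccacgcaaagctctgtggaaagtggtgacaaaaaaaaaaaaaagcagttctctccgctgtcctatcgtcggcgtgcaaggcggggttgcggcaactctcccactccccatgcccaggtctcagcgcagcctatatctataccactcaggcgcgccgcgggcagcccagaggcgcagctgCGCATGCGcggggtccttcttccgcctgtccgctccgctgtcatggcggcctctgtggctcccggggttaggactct
Mrps9: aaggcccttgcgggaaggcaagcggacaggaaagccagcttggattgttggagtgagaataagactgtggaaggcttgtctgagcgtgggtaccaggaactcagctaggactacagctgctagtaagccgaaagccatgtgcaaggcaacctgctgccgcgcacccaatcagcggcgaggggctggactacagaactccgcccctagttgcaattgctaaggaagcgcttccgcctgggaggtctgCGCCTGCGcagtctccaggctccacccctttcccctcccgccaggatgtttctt
Mrpl45: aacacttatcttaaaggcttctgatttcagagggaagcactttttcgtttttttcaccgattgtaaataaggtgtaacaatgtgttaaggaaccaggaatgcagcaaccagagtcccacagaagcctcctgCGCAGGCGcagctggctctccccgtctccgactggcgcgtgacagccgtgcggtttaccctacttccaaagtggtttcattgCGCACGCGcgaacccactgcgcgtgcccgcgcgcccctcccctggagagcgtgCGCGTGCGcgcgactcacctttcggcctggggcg
Mrpl18: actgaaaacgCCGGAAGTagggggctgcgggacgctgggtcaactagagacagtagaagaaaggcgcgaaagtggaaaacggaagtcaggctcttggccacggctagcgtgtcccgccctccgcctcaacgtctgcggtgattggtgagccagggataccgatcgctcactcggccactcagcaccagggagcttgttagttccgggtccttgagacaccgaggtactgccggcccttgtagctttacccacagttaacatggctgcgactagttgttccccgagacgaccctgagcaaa
Mrps27: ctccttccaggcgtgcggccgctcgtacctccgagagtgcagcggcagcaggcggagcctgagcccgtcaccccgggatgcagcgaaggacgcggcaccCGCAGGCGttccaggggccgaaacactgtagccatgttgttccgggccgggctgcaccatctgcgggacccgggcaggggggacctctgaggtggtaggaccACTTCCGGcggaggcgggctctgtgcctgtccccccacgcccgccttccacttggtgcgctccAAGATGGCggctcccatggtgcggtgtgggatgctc
Mrpl46: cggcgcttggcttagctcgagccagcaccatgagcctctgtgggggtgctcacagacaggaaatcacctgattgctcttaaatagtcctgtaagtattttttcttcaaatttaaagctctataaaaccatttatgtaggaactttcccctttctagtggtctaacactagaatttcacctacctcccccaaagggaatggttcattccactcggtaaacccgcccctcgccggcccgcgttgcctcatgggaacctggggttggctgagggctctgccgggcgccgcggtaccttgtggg
The Mrpl9 and Mrps9 windows hold 1 NRF1 match each, the Mrpl45 window holds 3, the Mrpl18 window holds 1 ETS match, and the Mrps30 and Mrpl46 windows hold none of the letters searched. A match is a description of the letters, and no binding was measured. The ETS match of Mrps27, the NRF1 match of Mrps9 and the last NRF1 match of Mrpl45 are on the opposite strand and are printed as reverse complements. In these windows no match overlapped one of another motif.

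Skeletal muscle of Tk2-/- mice was compared with that of Tk2+/+ mice to see whether the members change in the tissue. Of the 74 members, 4 were higher (Mrpl9, Mrpl41, Mrps30 and Mrps9) in Tk2-/- muscle, where 11.6% of all genes were called higher. A further 10 were lower (Mrpl18, Mrpl19, Mrpl36, Mrpl48, Mrpl49, Mrpl52, Mrpl58, Mrps2, Mrps25 and Mrps36), where 10.9% of all genes were called lower. The members' log2 fold changes ran from −0.86 to 0.70 with a median of −0.08, against −0.02 over all genes. The 3 arrays of each genotype did not overlap for 18 members, 5 with all Tk2-/- arrays above and 13 with all below, against 16.9% and 18.8% of all genes. After quantile normalization within the tissue the same 4 and 10 members were called and others joined them, giving 6 higher and 23 lower, against 13.8% and 14.8% of all genes, with a median of −0.17 against 0.00 over all genes. The count of 10 fell to 4 without Tk2+/+ muscle array 2, to 6 without Tk2-/- muscle array 2 and to 4 without Tk2-/- muscle array 3. The Tk2+/+ muscle array 2 was the highest of its group for 70 of the 74 members, whereas it was the highest for 48.8% of all genes.

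**Figure D1:**
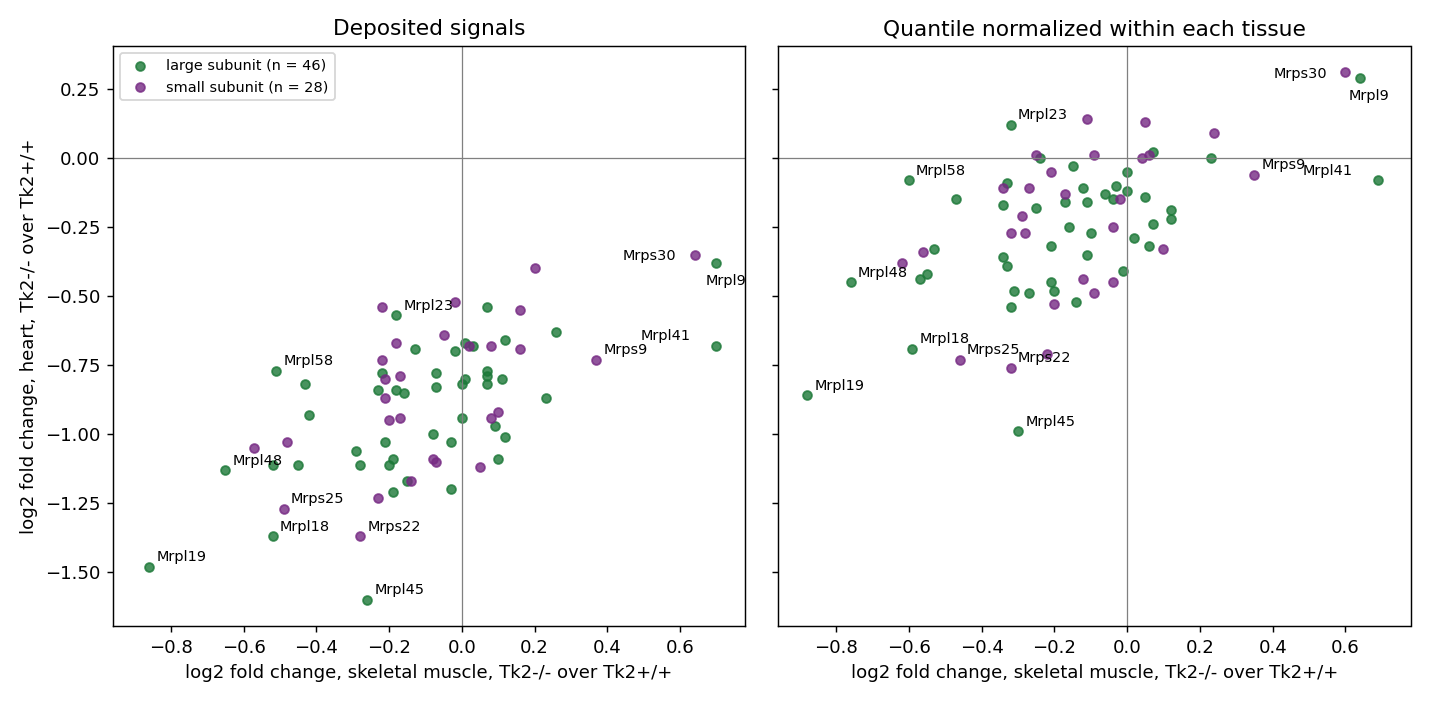
Log2 fold change of each member, Tk2-/- over Tk2+/+, with muscle on the horizontal and heart on the vertical axis, on the deposited signals and after quantile normalization within each tissue; each point is 1 gene, coloured by subunit. On the deposited signals all 74 points lie below 0 in heart, and after quantile normalization 63 do.

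Mrps30, whose protein sits in the large subunit in spite of its symbol, had muscle signals of 314, 346 and 313 in Tk2-/- muscle, against 189, 252 and 171 in Tk2+/+ muscle. All Tk2-/- muscle arrays stood above all Tk2+/+ muscle arrays, and the Tk2-/- arrays lay close together. The means were 324 ± 18.5 in Tk2-/- muscle and 204 ± 42.8 in Tk2+/+ muscle (SD, n = 3 each), a log2 fold change of 0.64 ± 0.12 (SE; limma adjusted p = 0.0015), and a second, dimmer probe set of the gene gave 0.35 (adjusted p = 0.0209). Mrpl9, a homolog of bacterial protein L9, had muscle signals of 375, 515 and 389 in Tk2-/- muscle, against 214, 317 and 237 in Tk2+/+ muscle. Array 2 was the highest in both genotypes, and the groups did not overlap (log2 fold change 0.70 ± 0.15, limma adjusted p = 0.00275). Mrpl41, a large subunit protein without a bacterial homolog, had muscle signals of 189.8, 268 and 174 in Tk2-/- muscle, against 117, 145 and 107 in Tk2+/+ muscle and again no overlap. Its log2 fold change was 0.70 ± 0.17 (limma adjusted p = 0.00699), and the number of its probe set falls among probe sets of another chromosome, which leaves its assignment to Mrpl41 less sure. Mrps9, the small subunit homolog of bacterial S9, had muscle signals of 207, 246 and 210.2 in Tk2-/- muscle, against 175, 182 and 146 in Tk2+/+ muscle, with means of 221 ± 22 in Tk2-/- muscle and 168 ± 19.3 in Tk2+/+ muscle (SD, n = 3 each). This rise was the smallest of the 4 (log2 fold change 0.37, limma adjusted p = 0.041) and no longer passed the threshold without Tk2+/+ muscle array 1 (0.40) or 3 (0.28), without Tk2-/- muscle array 1 (0.41), 2 (0.29) or 3 (0.40), or without Tk2-/- heart array 1 (0.37), which bears on the shared estimate of the spread.

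Among the members called lower in muscle, each read from its brightest probe set, Mrpl19 had the largest change. This homolog of bacterial L19 had signals of 173, 135 and 155 in Tk2-/- muscle, against 279.8, 344 and 257 in Tk2+/+ muscle. Every Tk2-/- muscle array lay far below every Tk2+/+ muscle array, and the log2 fold change of −0.86 ± 0.14 (limma adjusted p = 0.000431) kept its call whichever array was left out. Mrpl48, a protein of the central protuberance at the top of the large subunit, had signals of 535, 465 and 416 in Tk2-/- muscle, against 728, 905 and 632 in Tk2+/+ muscle, without overlap (log2 fold change −0.65, limma adjusted p = 0.00599). Mrpl18, a homolog of bacterial L18 in the same protuberance, had signals of 281, 297 and 263 in Tk2-/- muscle, against 381, 501 and 355 in Tk2+/+ muscle. Its probe sets changed alike, with log2 fold changes of −0.52 for the brighter (limma adjusted p = 0.02) and −0.52 for the dimmer (adjusted p = 0.0362). The dimmer probe set is numbered among those of chromosome 2, whereas Mrpl18 lies on chromosome 17, which leaves its assignment less sure. Mrpl49 averaged 236 ± 23.8 in Tk2-/- muscle and 347 ± 53.3 in Tk2+/+ muscle (SD, n = 3 each), a log2 fold change of −0.52 (limma adjusted p = 0.0196). Mrps36, whose protein is now known as a subunit of the 2-oxoglutarate dehydrogenase complex rather than of the ribosome, averaged 229.8 ± 24.9 in Tk2-/- muscle and 354 ± 87.7 in Tk2+/+ muscle (log2 fold change −0.57, limma adjusted p = 0.0143). The probe sets of Mrpl48 and Mrps36 are, like that of Mrpl41, numbered among those of another chromosome. RefSeq lists the pseudogene Mrpl48-ps on chromosome 4 and the pseudogenes Mrps36-ps2 and Mrps36-ps3 on chromosome 7, which are the chromosomes in question, and whether these probe sets measure the gene or a copy of it was not tested. The calls of Mrpl18, Mrpl49 and Mrps36 were lost without Tk2+/+ muscle array 2 (log2 fold changes −0.37, −0.41 and −0.39) and without Tk2-/- muscle array 3 (−0.48, −0.46 and −0.48), and that of Mrpl49 also without Tk2-/- muscle array 2 (−0.52). Mrpl58, a peptidyl-tRNA hydrolase built into the large subunit that can release stalled chains, averaged 388 ± 36.8 in Tk2-/- muscle and 562 ± 84.5 in Tk2+/+ muscle (SD, n = 3 each; log2 fold change −0.51, limma adjusted p = 0.00548).

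**Figure D2:**
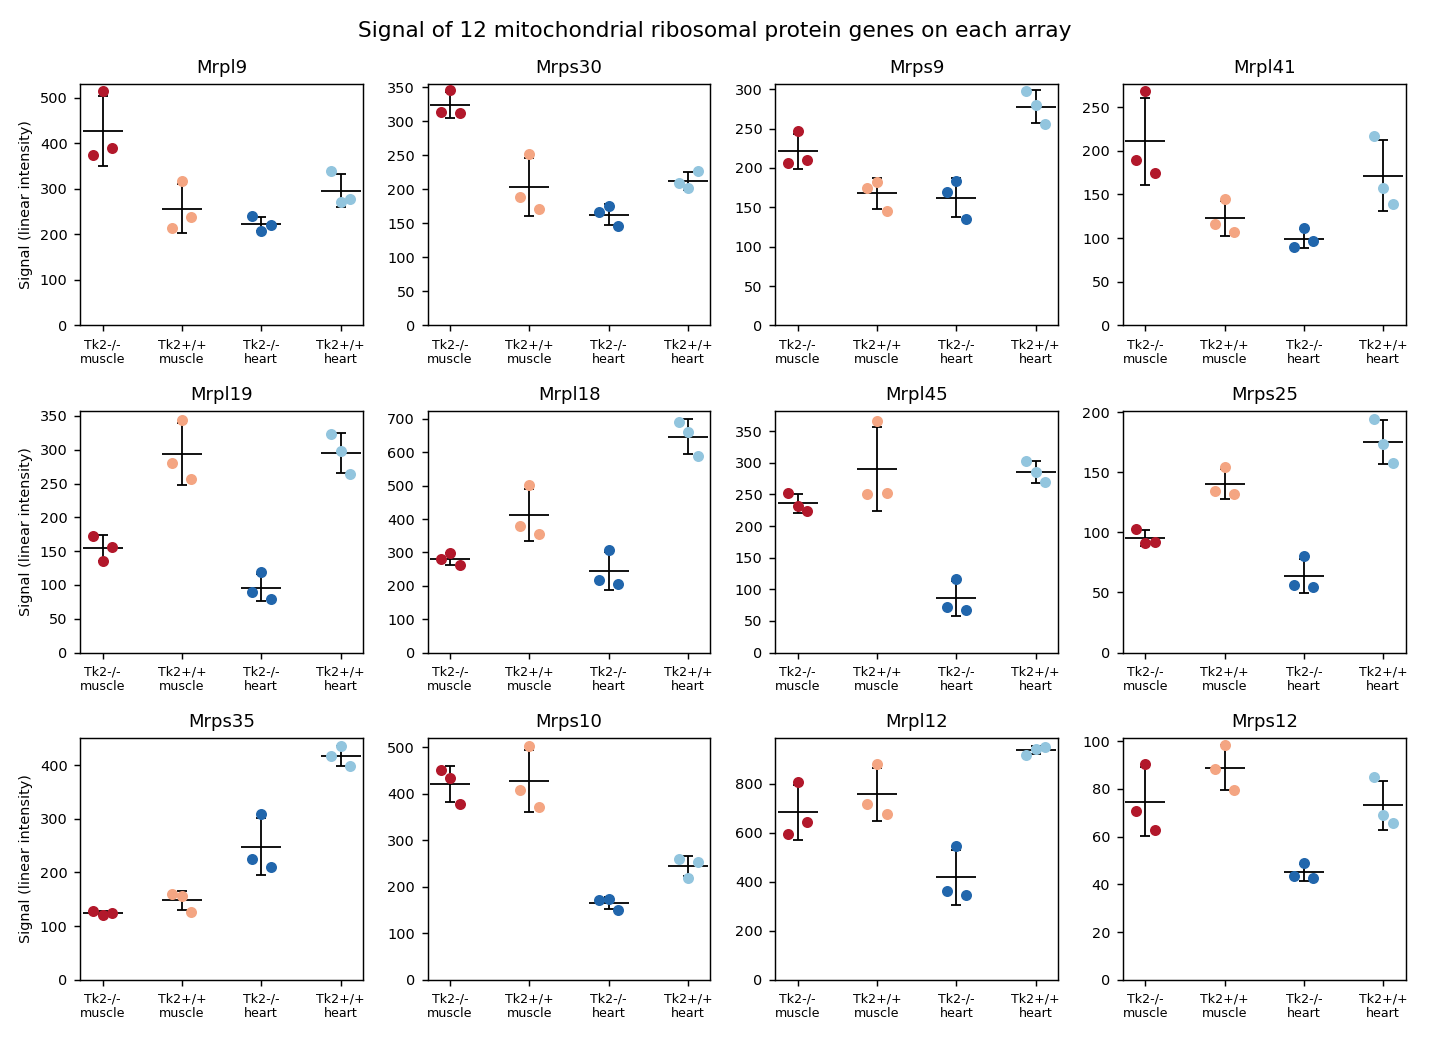
Signal (linear intensity) of 12 members on each of the 12 arrays; points are arrays, horizontal marks with error bars are group means ± SD (n = 3), and each panel has its own axis that starts at 0. Mrps30 and Mrpl9 are higher on all Tk2-/- muscle arrays than on all Tk2+/+ muscle arrays, and Mrpl45 averages 85.6 in Tk2-/- heart against 286 in Tk2+/+ heart.

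In heart, all 74 members had lower deposited signals in Tk2-/- mice than in Tk2+/+ mice, and all 74 were called lower, where 49.0% of all genes were called lower; no member was called higher, where 1.99% of all genes were. Every Tk2-/- heart array lay below every Tk2+/+ heart array for each member, as for 53.3% of all genes, whereas 3.16% of all genes had all Tk2-/- arrays above. The log2 fold changes ran from −1.60 to −0.35 with a median of −0.85, against −0.28 over all genes. Bright genes shared in this fall. Of 4051 genes whose mean signal had a log2 above 8, 84.8% were called lower with a median of −0.68, and the 49 members among them had a median of −0.87. After quantile normalization within heart, 35 members were lower and 1 was higher, against 17.9% and 13.9% of all genes. The median of the members was then −0.21, against 0.00 over all genes and −0.03 over the bright genes, and the 49 bright members had a median of −0.19. Scaling each array to its upper quartile, an alternative added after seeing the data, gave 33 members lower and 1 higher with a median of −0.21, while over all genes 6768 were then called higher and 2747 lower with a median of 0.16. Centring each array on its median gave 70 lower and 0 higher with a median of −0.66, against 7147 lower and 2597 higher over all 18820 genes with a median of −0.10. The count of 74 lower members stayed between 72 and 74 when single arrays were left out. The Tk2-/- heart array 2 was the highest of its group for 71 of the 74 members, whereas it was the highest for 50.8% of all genes.

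Mrpl45, a large subunit protein that lies near the peptide exit and ties the ribosome to the inner membrane, had heart signals of 72.4, 117 and 67.6 in Tk2-/- heart, against 303, 285 and 269 in Tk2+/+ heart. The Tk2-/- heart arrays lay far below the Tk2+/+ heart arrays, with array 2 the highest among them. The log2 fold change of −1.60 ± 0.17 (limma adjusted p = 2.9e-06) was the largest of the members and remained −0.99 after quantile normalization (adjusted p = 0.000204). Mrpl19 had heart signals of 90.2, 119 and 79.9 in Tk2-/- heart, against 324, 298 and 264 in Tk2+/+ heart, without overlap (−1.48, limma adjusted p = 1.74e-06; −0.86 after quantile normalization, adjusted p = 0.000115). Mrpl18 had heart signals of 216, 309 and 205 in Tk2-/- heart, against 691, 661 and 589.8 in Tk2+/+ heart (−1.37, limma adjusted p = 3.87e-06; −0.69 after quantile normalization, adjusted p = 0.000432). For both genes the lowest Tk2-/- heart array was array 3. Mrps22, a small subunit protein without a bacterial homolog, had heart signals of 89.9, 134 and 64.9 in Tk2-/- heart, against 283, 283 and 232 in Tk2+/+ heart. Its Tk2-/- heart arrays were widely spread, yet the log2 fold change was −1.37 (limma adjusted p = 1.21e-05), and −0.76 after quantile normalization (adjusted p = 0.00258). Mrps25, likewise without a bacterial homolog, averaged 63.8 ± 14.2 in Tk2-/- heart and 175 ± 18.3 in Tk2+/+ heart (SD, n = 3 each), with −1.27 on the deposited signals (limma adjusted p = 1.96e-06) and −0.73 after quantile normalization (adjusted p = 0.00022). These 5 members also kept their calls under upper-quartile scaling. Mrps30 stood at the other end. Its heart signals were 167, 176 and 146 in Tk2-/- heart, against 209, 202 and 227 in Tk2+/+ heart, lower on the deposited scale (−0.35, limma adjusted p = 0.0257) and higher after quantile normalization (0.31, adjusted p = 0.016), so that its direction in heart depended on the scaling. Mrpl9 was likewise lower in heart on the deposited scale (−0.38, limma adjusted p = 0.0413) and 0.29 after quantile normalization (adjusted p = 0.113).

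Across both tissues, after quantile normalization within each, 14 members were lower in Tk2-/- muscle and in Tk2-/- heart (Mrpl13, Mrpl18, Mrpl19, Mrpl34, Mrpl36, Mrpl42, Mrpl46, Mrpl48, Mrpl49, Mrpl51, Mrps2, Mrps25, Mrps33 and Mrps36). Mrps30 was higher in both, and no member was called in opposite directions. A further 9 were lower in muscle alone, 21 were lower in heart alone, 5 were higher in muscle alone (Mrpl32, Mrpl41, Mrpl9, Mrps26 and Mrps9), and 24 passed the threshold in neither tissue. Over all genes, 14.8% were called lower and 13.8% higher in muscle, and 17.9% lower and 13.9% higher in heart. How many of all genes were called in both tissues is not given, so the joint counts stand without that share. A call in 1 tissue and not in the other does not show a difference between tissues, so the genotype effects were also tested against each other. On the deposited signals the effect in muscle lay above that in heart for 65 members, where 41.3% of all genes did so, and below it for 0 members (1.39% of all genes; limma, 0 also in every fit with 1 array left out), with a median difference of 0.78 against 0.30 over all genes. After quantile normalization within each tissue 4 members lay above and 2 below, against 6.0% and 4.54% of all genes, with a median of 0.08 against 0.01.

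The members whose genotype effect differed between tissues on both scales were Mrpl41, Mrpl45, Mrps7 and Mrps17. Mrpl45 had muscle signals of 252, 232 and 224 in Tk2-/- muscle, against 249.9, 367 and 253 in Tk2+/+ muscle. The muscle groups overlapped, and the log2 fold change there was −0.26 (limma adjusted p = 0.33), so that the effect in muscle minus that in heart was 1.34 (adjusted p = 0.000453), or 0.70 after quantile normalization (adjusted p = 0.0387). Mrpl41 had heart signals of 90.3, 111 and 97.2 in Tk2-/- heart, against 217, 158 and 139.6 in Tk2+/+ heart, opposite in direction to its rise in muscle on the deposited scale (−0.68, limma adjusted p = 0.00268) and near no change after quantile normalization (−0.08). Its difference between tissues was 1.38 (adjusted p = 0.000415), and 0.78 after quantile normalization (adjusted p = 0.0301). Mrps7, the homolog of the bacterial S7 that organises the head of the small subunit, averaged 434 ± 18.5 in Tk2-/- muscle and 422 ± 56 in Tk2+/+ muscle, against 166 ± 24.1 in Tk2-/- heart and 379 ± 30.5 in Tk2+/+ heart (SD, n = 3 each; difference 1.17, limma adjusted p = 0.000152; 0.41 after quantile normalization, adjusted p = 0.0319). Mrpl3 and Mrpl35 had differences of 1.19 and 1.17 on the deposited scale, which after quantile normalization were 0.40 (adjusted p = 0.0636) and 0.37 (adjusted p = 0.0901). Mrpl58 and Mrpl23 were the members on the other side after quantile normalization, with −0.52 (adjusted p = 0.00653) and −0.43 (adjusted p = 0.0414), though on the deposited scale their differences were 0.25 and 0.39 and passed no threshold.

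Skeletal muscle was also set against heart within each genotype. Between Tk2+/+ tissues 5 members were higher in muscle (Mrps10, Mrpl17, Mrps28, Mrps18b and Mrps34), where 30.6% of all genes were, and 14 were lower, where 18.4% were, with a median of −0.10 against 0.12 over all genes. Quantile normalization over the 12 arrays gave 12 higher and 17 lower, against 19.3% and 21.9% of all genes, while centring on the median gave 1 higher and 41 lower, beside 2161 higher and 6450 lower over all 18820 genes with a median shift of −0.14. The count of 5 became 3 without Tk2+/+ muscle array 2 and 9 without array 3, and the count of 14 became 9 without Tk2+/+ muscle array 1 or 3 or Tk2+/+ heart array 1, and 22 without Tk2+/+ muscle array 2. Between Tk2-/- tissues 66 members were higher in muscle, where 59.5% of all genes were, and 1 was lower, where 4.55% were, and after quantile normalization over the 12 arrays 21 were higher and 13 lower, against 19.1% and 18.8%. Mrps35, a small subunit protein without a bacterial homolog, had the largest tissue difference of the members in Tk2+/+ mice, and in both genotypes after quantile normalization. Its signals were 128, 120.3 and 124 in Tk2-/- muscle, against 225, 308 and 209.7 in Tk2-/- heart, and 159.6, 157 and 127 in Tk2+/+ muscle, against 416, 435 and 397 in Tk2+/+ heart. Every muscle array lay below every heart array of the same genotype, with log2 differences of −0.90 in Tk2-/- mice (limma adjusted p = 2.39e-05) and −1.40 in Tk2+/+ mice (adjusted p = 3.97e-07), or −1.51 and −1.34 after quantile normalization.

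The members highest in Tk2-/- muscle over Tk2-/- heart on the deposited signals were Mrps34, Mrpl45, Mrps7, Mrpl38 and Mrps10. Mrps34, a small subunit protein without a bacterial homolog, had signals of 288, 363 and 316 in Tk2-/- muscle, against 118, 131 and 97.5 in Tk2-/- heart. The groups did not overlap, with a log2 difference of 1.37 (limma adjusted p = 2.76e-07), or 0.77 after quantile normalization. Mrpl38, a protein of the central protuberance of the large subunit, had signals of 563, 581 and 499 in Tk2-/- muscle, against 200.3, 249 and 189.7 in Tk2-/- heart, again without overlap (1.31, limma adjusted p = 6.99e-07; 0.63 after quantile normalization). The log2 differences of Mrpl45, Mrps7 and Mrps10 were 1.34, 1.31 and 1.27 on the deposited signals and 0.79, 0.66 and 0.62 after quantile normalization.

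Mrps10, a small subunit homolog of bacterial S10, was the member most raised in Tk2+/+ muscle over Tk2+/+ heart. It averaged 427 ± 67.3 in Tk2+/+ muscle and 244 ± 21.5 in Tk2+/+ heart (SD, n = 3 each; log2 difference 0.76, limma adjusted p = 0.00012), and its other probe sets gave 0.87 and 0.86. Mrpl17, at the peptide exit, averaged 615 ± 109 in Tk2+/+ muscle and 399 ± 60.9 in Tk2+/+ heart (0.60, adjusted p = 0.00325). Centring on the median left Mrps10 alone past the threshold among these 5. The calls of Mrps18b and Mrps34 also depended on single arrays, Mrps18b on Tk2+/+ muscle array 2 (log2 difference 0.29 without it) and Mrps34 on Tk2+/+ muscle array 1 (0.37) or 2 (0.24) and Tk2+/+ heart array 1 (0.34) or 2 (0.28). On the heart side, Mrpl34 averaged 992 ± 153 in Tk2+/+ muscle and 1753 ± 46.8 in Tk2+/+ heart (−0.82, limma adjusted p = 0.000127). Mrpl55 (−0.78), Mrps23 (−0.69) and Mrps9 (−0.68) were also lower in Tk2+/+ muscle than in Tk2+/+ heart, and kept that direction after quantile normalization (−0.69, −0.59 and −0.60).

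**Figure D3:**
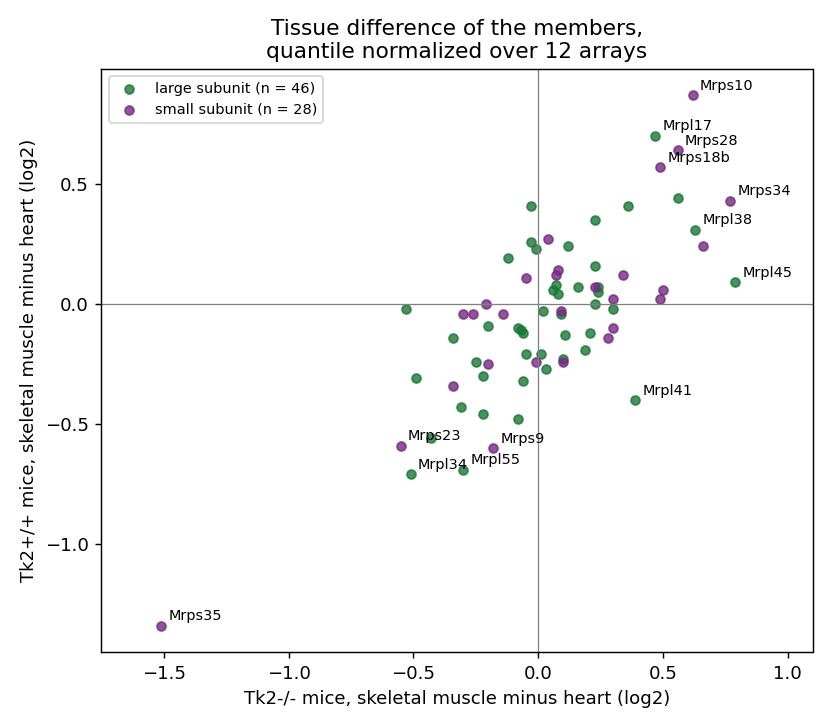
Log2 difference of each member between skeletal muscle and heart in Tk2-/- mice (horizontal axis) and Tk2+/+ mice (vertical axis), after quantile normalization over the 12 arrays; each point is 1 gene. Mrps35 lies at −1.51 and −1.34, apart from the other members, and Mrps10 at 0.62 and 0.87.

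The large and the small subunit members had close medians in both genotype contrasts. In muscle, 2 of 46 large subunit members were higher and 7 lower in Tk2-/- mice, against 2 and 3 of 28 small subunit members, and the medians were −0.08 and −0.11. Of all genes, 11.6% were called higher and 10.9% lower there. In heart, all 46 and all 28 were lower, where 49.0% of all genes were, with medians of −0.85 and −0.83. After quantile normalization 23 large subunit members were lower and 0 higher (median −0.23), against 12 lower and 1 higher in the small subunit (median −0.18). Of all genes, 17.9% were then lower and 13.9% higher. The difference between the medians, large minus small, was 0.03 in muscle and −0.01 in heart. When each array was summarised by the median of its large subunit members minus that of its small subunit members (each gene centred over the 12 arrays), the 12 arrays lay between −0.08 and 0.11, with a pooled replicate SD of 0.04. The subunit difference was smaller than 1 SD of replicate arrays in both genotype contrasts, but not under every alternative. In muscle it was 0.072 without Tk2+/+ muscle array 2 and 0.08 without Tk2-/- muscle array 3, and in heart it was −0.059 without Tk2-/- heart array 3 and −0.065 with means over members. It was 0.07 for the muscle effect minus the heart effect, −0.06 for Tk2-/- muscle minus heart and −0.07 for Tk2+/+ muscle minus heart, all larger in size than 1 SD. That SD is of single arrays, whereas the contrasts are between means of 3 arrays, so it does not measure their spread. The 3 Tk2+/+ muscle arrays (−0.031, −0.022 and −0.055) all lay below the 3 Tk2+/+ heart arrays (0.048, 0.007 and 0.109). Placing Mrps30 and Mrps18a in the large subunit, where their proteins are found, and leaving out Mrps36 gave 48 and 25 members with medians of −0.07 and −0.14 in muscle and of −0.84 and −0.87 in heart.

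**Figure D4:**
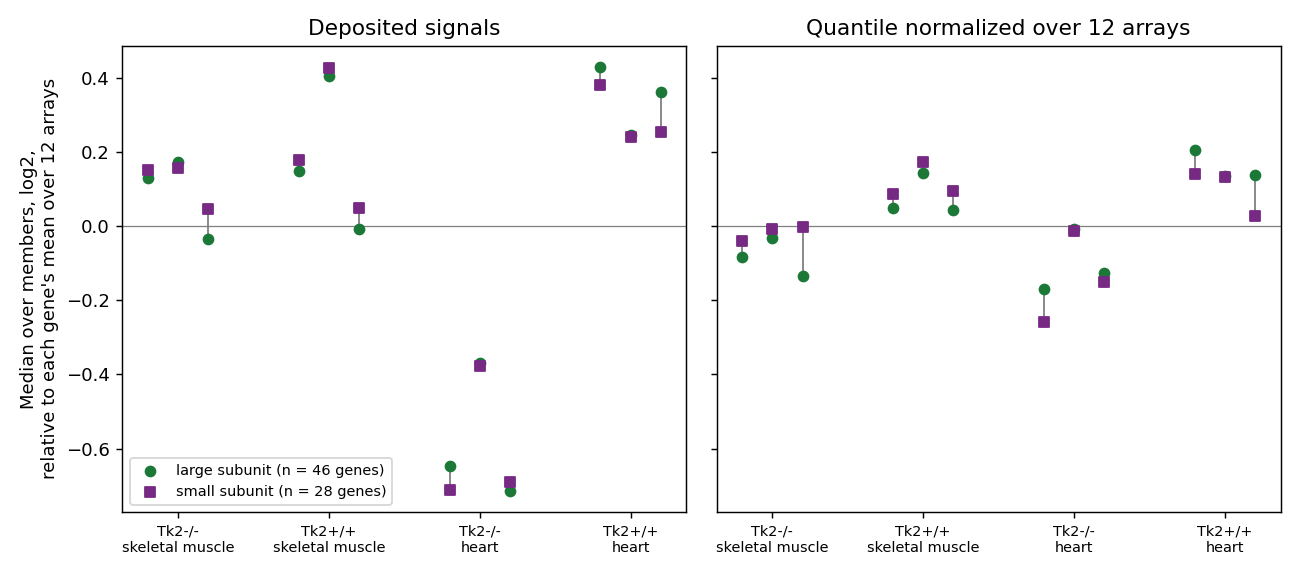
Median over the 46 large subunit members and over the 28 small subunit members on each array (log2, relative to each gene's mean over the 12 arrays), on the deposited signals and after quantile normalization over the 12 arrays. The large minus the small subunit median lies between −0.082 and 0.109 on the deposited signals, and between −0.132 and 0.112 after quantile normalization. On the deposited signals the Tk2-/- heart arrays are the lowest.

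The members were also grouped by what their proteins are. The 28 large subunit members with a bacterial homolog had median log2 fold changes of −0.05 in muscle and −0.84 in heart, and the 18 large subunit proteins without such a homolog had −0.19 and −0.84. In the small subunit the medians were −0.17 and −0.87 for the 15 homologs and −0.14 and −0.94 for the 9 without. Mrps30 was counted in the large subunit here, and Mrpl55, Mrps18a, Mrps18b and Mrps36 were in none of these 4 lists. The 6 members of the central protuberance had medians of −0.14 in muscle and −0.99 in heart, and 2 of them (Mrpl18 and Mrpl48) fell in muscle. Of 8 proteins around the peptide exit 7 were measured, with medians of −0.19 and −0.78, and none was called in muscle on the deposited signals, while after quantile normalization 3 were lower there. Of the 4 proteins of the stalk that recruits translation factors, and of its base, 3 were measured, with medians of −0.07 and −0.94.

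Several members have roles beyond the common frame. Mrpl12, a stalk protein that also binds the mitochondrial RNA polymerase, had heart signals of 361, 546 and 346 in Tk2-/- heart, against 917, 943 and 950.3 in Tk2+/+ heart, without overlap (log2 fold change −1.17, limma adjusted p = 2.29e-05; −0.49 after quantile normalization, adjusted p = 0.00957). In muscle it gave −0.15 (adjusted p = 0.611). Mrps12, part of the decoding centre, averaged 74.7 ± 14.3 in Tk2-/- muscle and 88.9 ± 9.47 in Tk2+/+ muscle (SD, n = 3 each), and 45.0 ± 3.49 in Tk2-/- heart and 73.2 ± 10.3 in Tk2+/+ heart. Its fall in heart (−0.54, limma adjusted p = 0.00154) was among the smaller ones and was −0.13 after quantile normalization (adjusted p = 0.36). Mrps18a, which belongs to the large subunit, gave 0.02 in muscle, and −0.68 in heart on the deposited signals against 0.01 after quantile normalization. Mrps28, a small subunit protein, was lower in Tk2-/- muscle only after quantile normalization (−0.21 on the deposited signals, −0.29 after it, adjusted p = 0.0463). Mrpl47, at the peptide exit, fell in heart on both scales (−1.09, limma adjusted p = 1.33e-05, and −0.45, adjusted p = 0.00676). The brightest member, Mrpl42, averaged 1678 ± 154 in Tk2-/- muscle and 2277 ± 532 in Tk2+/+ muscle, and 1385 ± 360.0 in Tk2-/- heart and 2615 ± 268 in Tk2+/+ heart, and the dimmest, Mrpl22, averaged 60.7 ± 7.05 in Tk2-/- muscle and 57.0 ± 6.05 in Tk2+/+ muscle, and 36.5 ± 3.2 in Tk2-/- heart and 60.8 ± 8.17 in Tk2+/+ heart (SD, n = 3 each). Both fell in heart, Mrpl42 by 0.93 and Mrpl22 by 0.54 on the log2 scale (limma adjusted p = 0.000299 and 0.000594), and the values were −0.33 and −0.22 after quantile normalization (adjusted p = 0.0456 and 0.0448).

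The factors that work with this ribosome were read from fixed lists. Of 13 mitochondrial translation factors, 0 were higher and 1 was lower in Tk2-/- muscle (limma; median −0.16; 0 higher and 4 lower after quantile normalization) and 12 were lower in Tk2-/- heart (median −0.96), of which the count after quantile normalization was 8 with a median of −0.42. Taco1, which activates translation of the Cox1 mRNA, averaged 119.8 ± 40.8 in Tk2-/- heart and 391 ± 4.93 in Tk2+/+ heart (SD, n = 3 each; log2 fold change −1.63, limma adjusted p = 3.66e-06; −0.99 after quantile normalization). Tufm, the elongation factor that brings aminoacyl-tRNA, gave −1.44, Tsfm, its exchange factor, −1.39, and Gfm2, a ribosome recycling factor, −1.24 in heart, and after quantile normalization −0.76, −0.77 and −0.59. Mtfmt, which formylates the initiator tRNA, was the factor lower in muscle (−0.38, limma adjusted p = 0.0146; named for that call after its values were seen). Of 22 genes of ribosome assembly and rRNA modification 18 were measured, 2 higher and 0 lower in muscle (median −0.03; 3 higher and 2 lower after quantile normalization) and 15 lower in heart (median −0.62), with 2 higher and 4 lower in heart after quantile normalization. The largest changes of this list were in heart, for Mrm3, Nsun4, Fastkd2 and Mrm1 (−1.14, −0.96, −0.88 and −0.87). After quantile normalization these were −0.58, −0.32, −0.32 and −0.33.

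Of 14 listed genes of mitochondrial transcription and RNA handling 11 were measured, and 4 were higher and 0 lower in Tk2-/- muscle (limma; median 0.19), 4 higher and 2 lower there after quantile normalization. These 4, named after their values were seen, were Polrmt, the mitochondrial RNA polymerase, with 319 ± 8.61 in Tk2-/- muscle and 228 ± 14.1 in Tk2+/+ muscle (SD, n = 3 each; log2 fold change 0.46, limma adjusted p = 0.00437), Tfb2m, its initiation factor (0.43), and the tRNA processing enzymes Elac2 (0.51) and Hsd17b10 (0.55). In heart 9 of the 11 were lower on the deposited signals (median −0.65), and 2 were higher and 4 lower after quantile normalization. The largest changes of this list were the falls of Pnpt1, Lrpprc, Tefm and Tfam in heart (−1.34, −1.23, −1.09 and −0.93). After quantile normalization these were −0.68, −0.55, −0.44 and −0.37. Polrmt, Tfb2m, Elac2 and Hsd17b10 gave −0.65, −0.50, −0.51 and −0.17 in heart, or 0.01, 0.19, 0.17 and 0.46 after quantile normalization. Among 9 regulators of nuclear mitochondrial genes, 1 was higher and 3 were lower in muscle (2 and 3 after quantile normalization). Nrf1 averaged 166 ± 9.53 in Tk2-/- muscle and 118 ± 9.69 in Tk2+/+ muscle (SD, n = 3 each; 0.45, limma adjusted p = 0.00464) and was named after its values were seen. Ppargc1b, a coactivator of mitochondrial genes, averaged 83.4 ± 16.2 in Tk2-/- muscle and 235 ± 17.6 in Tk2+/+ muscle, and 146 ± 25.4 in Tk2-/- heart and 381 ± 34.1 in Tk2+/+ heart, with log2 fold changes of −1.35 and −1.30 (limma adjusted p = 5.36e-06 and 2.75e-06), or −1.35 and −0.64 after quantile normalization. Gabpb1, a subunit of the ETS-type GABP complex, gave −0.33 in muscle (adjusted p = 0.023) and −0.88 in heart (adjusted p = 4.85e-06), or −0.32 and −0.28 after quantile normalization. In heart 7 of the 9 regulators were lower and 1 was higher on the deposited signals, and 2 were higher and 3 lower after quantile normalization. Pprc1 and Esrra gave −0.89 and −0.84 in heart, or −0.55 and −0.18 after quantile normalization. Ppargc1a, also named after its values were seen, was lower in muscle (−0.48, limma adjusted p = 0.014, and −0.60 after quantile normalization). Of 5 ribosome proteins with other symbols 3 were measured, and Dap3, of the small subunit, was higher in muscle (0.36, limma adjusted p = 0.0478; 0.26 after quantile normalization). The others went the other way in muscle, Ptcd3 by −0.35 (−0.43 after quantile normalization, limma adjusted p = 0.0195) and Chchd1 by −0.19 (−0.26 after it). In heart Dap3, Ptcd3 and Chchd1 were all lower on the deposited signals (−0.59, −1.28 and −1.02). After quantile normalization the heart values were 0.09, −0.59 and −0.35.

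The closest groups of genes are the ribosomal proteins of the cytosol and the nuclear-encoded subunits of the respiratory chain. In muscle, 0 of 72 cytosolic ribosomal proteins were higher and 1 was lower (limma; median 0.08; 0 and 5 after quantile normalization, median −0.06), and of 76 respiratory chain subunits 2 were higher and 3 lower (median 0.09; 2 and 10 after quantile normalization, median −0.05), beside 4 and 10 of the 74 mitochondrial ribosomal proteins (median −0.08; 6 and 23, median −0.17). In heart, after quantile normalization, 35 of 74 mitochondrial ribosomal proteins were lower and 1 higher (median −0.21), beside 5 lower and 4 higher of 72 cytosolic ribosomal proteins (median −0.05) and 9 lower and 1 higher of 76 respiratory chain subunits (median −0.07). No test was made of the lists against each other, and nothing is called particular to the members from these counts. Markers of other cells moved with genotype too, and the marker counts, medians and sums that follow are on the deposited signals. There 49.0% of all genes and 84.8% of bright genes were called lower in heart. In muscle 10.9% of all genes were called lower and 11.6% higher. Of 7 fibroblast markers 5 were lower and 1 was higher in Tk2-/- muscle, all 7 were lower in Tk2-/- heart, and their summed signal ran from 7419 to 9080 in Tk2-/- muscle, against 13231 to 15096 in Tk2+/+ muscle, and from 4988 to 5567 in Tk2-/- heart, against 9692 to 12459 in Tk2+/+ heart. All 5 markers of dividing cells were lower in both tissues, with medians of −1.87 in muscle and −2.49 in heart, and all 7 macrophage markers were lower in heart, with summed signals of 616 to 711 in Tk2-/- heart, against 1631 to 2064 in Tk2+/+ heart. The dividing cell markers summed to 65 to 206 in Tk2-/- muscle, against 475 to 944 in Tk2+/+ muscle, and to 40 to 50 in Tk2-/- heart, against 443 to 1039 in Tk2+/+ heart, and their means were under 16 for 2 of the 5 in Tk2-/- muscle and for all 5 in Tk2-/- heart. All 5 endothelial markers were lower in Tk2-/- heart and 1 was lower in Tk2-/- muscle, with summed signals of 3171 to 4060 in Tk2-/- heart, against 6349 to 7425 in Tk2+/+ heart. The 3 measured erythroid markers were lower in Tk2-/- heart, with sums of 438 to 744, against 1161 to 1951 in Tk2+/+ heart, and none was called in muscle. Of 10 cardiomyocyte markers 3 were lower in Tk2-/- heart, with sums of 42953 to 44555, against 44593 to 59792 in Tk2+/+ heart. Of 4 adipocyte markers 3 were higher and 1 was lower in Tk2-/- muscle, with summed signals of 697 to 1457, against 283 to 559 in Tk2+/+ muscle. After quantile normalization the endothelial markers Kdr, Emcn, Cdh5 and Pecam1 gave −0.90, −0.29, −0.24 and −0.13 in heart, and Pecam1 passed no threshold (limma adjusted p = 0.158). The erythroid markers Slc4a1, Epb42 and Alas2 then gave −2.12, −0.95 and −0.54, and Alas2 passed no threshold (limma adjusted p = 0.213). The part of these cells in the changes of the members was not tested.

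**Figure D5:**
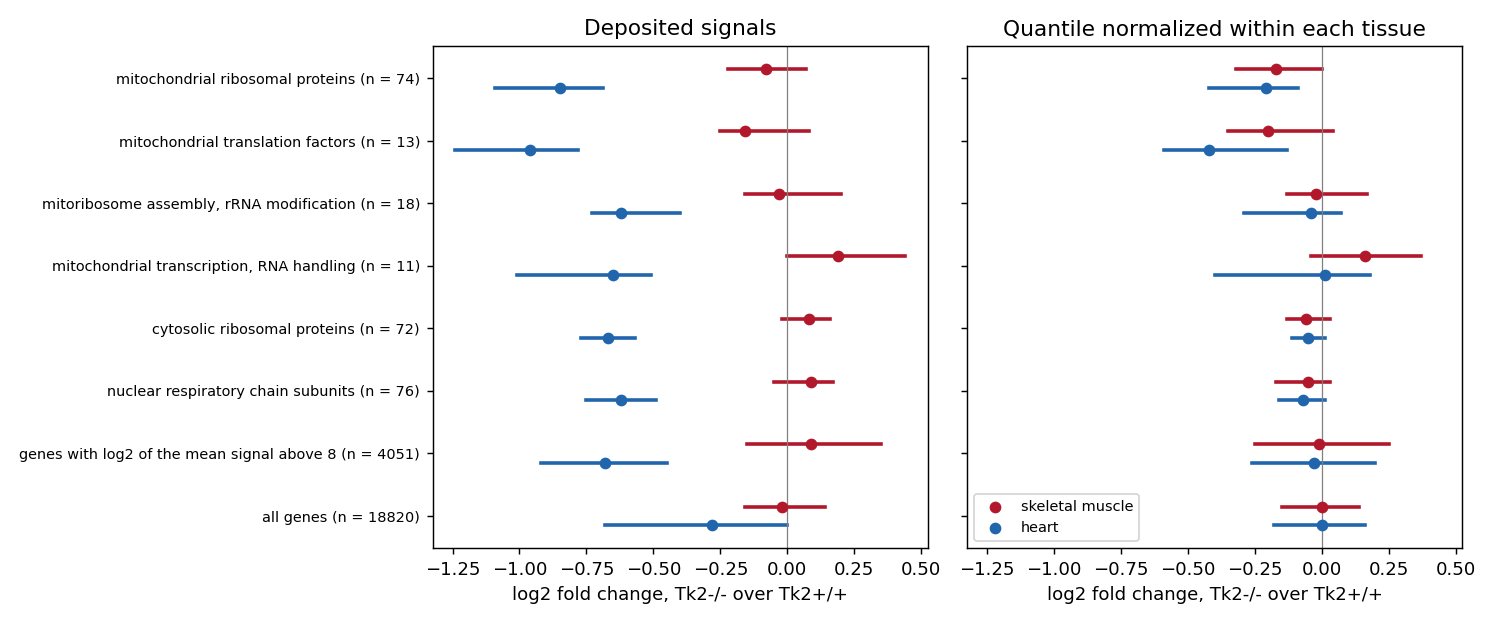
Median log2 fold change (points) and interquartile range (lines) of the members, 3 lists of partner genes, both compared groups, bright genes and all genes, Tk2-/- over Tk2+/+, in skeletal muscle and heart, on the deposited signals and after quantile normalization within each tissue. In heart the medians of all lists lie below 0 on the deposited signals, and after quantile normalization that of the members is −0.21 and that of the translation factors −0.42.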

How the data were processed

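Total RNA from hind limb skeletal muscle and heart was extracted with an RNeasy kit, and an Ambion WT Expression kit was used to label it for 12 arrays. The deposited table holds a linear signal intensity per probe set and array, which, per the submitters' processing notes, the authors made with Affymetrix Expression Console and PLIER (versions not given in the sources used here). Their scaling between arrays was not given, and a difference in it would move all genes of an array together. No column of per-sample values was left out (0 not used).

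Of 35556 probe sets, 21218 carry 1 symbol in the platform annotation, 1881 several and 12457 none, and those with 1 symbol gave 18820 genes by the brightest probe set. The 74 members come from 87 such probe sets, with more than 1 probe set for 12 members. By the order of probe set numbers, the probe set used lies among those of another chromosome for 8 members (Mrpl12, Mrpl27, Mrpl41, Mrpl48, Mrpl51, Mrps10, Mrps33 and Mrps36), against 5.28% of all. Log2(signal + 16) was fitted in limma 3.58.1 (R 4.3.3) with 4 group means over all 12 arrays, with 8 residual degrees of freedom. Adjustment was by the Benjamini-Hochberg method across the 18820 genes, at a threshold of 0.05. The p-values of further probe sets, and of both Mrpl51 probe sets where they are compared, were adjusted over the 21218 probe sets with 1 symbol. Subunit medians are descriptions without a test. The scripts were tested on simulated data. Tables and promoters were handled in Python 3.11.15 with pandas 2.3.3 and NumPy 2.4.6, and figures drawn with matplotlib 3.10.9.

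Alternatives were quantile normalization (within tissue, or over 12 arrays), median centring, upper-quartile scaling (added after seeing the data), an offset of 1, dim genes left out (group mean under 64), averaging a gene's probe sets, probe sets on the member's own chromosome (added), Xist as a covariate (added), each tissue alone, a trended robust prior, a replicate block, the methods' t-test, and leaving out each array.

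Named members are the 5 with the largest change past the threshold in each direction and contrast whose arrays do not overlap (for the difference between genotype effects, past the threshold only), the brightest and dimmest member, and 7 with a known role (Mrpl12, Mrps12, Mrps30, Mrps18a, Mrps36, Mrps28 and Mrpl47). Of other genes, Tk2 was named, and up to 4 with the largest change past the threshold in either tissue from each list of partner genes and regulators. Further genes of these lists were named after their values were seen. The compared groups are given as counts and medians without named genes. Members with probe sets past the threshold in opposite directions were to be named, and there were none. The members and lists were chosen with earlier results of these data known. The arrays of a group are separate mice, and p-values measure the spread between them.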

Additional observations from a re-analysis of the deposited data

Results flagged for a closer look

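The test of the genotype effect in muscle against that in heart called 65 members on the deposited signals, all with the effect in muscle above that in heart, where 41.3% of all genes were called in that direction. After quantile normalization within each tissue it called 4 members above and 2 below, near the 6.0% and 4.54% of all genes. On the deposited signals the largest differences (effect in muscle minus effect in heart, log2) were 1.38 for Mrpl41, 1.34 for Mrpl45, 1.19 for Mrpl3, 1.17 for Mrps7 and 1.17 for Mrpl35. After quantile normalization they were 0.78 for Mrpl41, 0.70 for Mrpl45, 0.43 for Mrps17 and 0.41 for Mrps7, where the effect in muscle lay above that in heart, and −0.43 for Mrpl23 and −0.52 for Mrpl58, where it lay below. The Mrpl41 probe set is numbered among those of another chromosome. Groups of 3 arrays were too small for the search for single outlying arrays.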

How the results depend on the processing

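Counts of members are given as higher, then lower. In muscle (4 and 10) quantile normalization within tissue or over 12 arrays gave 23 lower, and the methods' t-test gave 0 and 0, both after Benjamini-Hochberg adjustment and at a fold of 2. In heart (0 and 74) the counts were 1 and 35 with quantile normalization within tissue, 1 and 33 over 12 arrays or with upper-quartile scaling, and 26 lower by the t-test at a fold of 2. For the difference between genotype effects (65 and 0), both quantile normalizations gave 4 and 2. Between Tk2+/+ tissues (5 and 14), quantile normalization within tissue gave 33 and 6, over 12 arrays 12 higher, and median centring 1 and 41. Of all 18820 genes, 9329 were higher and 2016 lower within tissue, and 2161 and 6450 with median centring. Between Tk2-/- tissues (66 and 1), the counts were 5 lower within tissue, 21 and 13 over 12 arrays, and 28 higher with median centring. Of all genes, 1821 were lower within tissue and 4253 higher with median centring. No share of all genes is given for the t-test, the replicate block or the fits with 1 array left out. The large minus small subunit median was −0.023 and −0.021 in muscle (0.03) with quantile normalization within tissue and over 12 arrays, and −0.028 with means over members. In heart (−0.014) it was 0.031 with subunits by structure and −0.065 with means, and for the difference between effects (0.068) it was 0.019 with the mean of probe sets.

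With single arrays left out, the muscle counts ran from 3 to 4 higher and from 4 to 10 lower (4 without Tk2+/+ muscle array 2 or Tk2-/- muscle array 3, 6 without Tk2-/- muscle array 2). The heart counts ran from 0 to 0 and from 72 to 74, those of the difference between effects from 57 to 71 and from 0 to 0, those between Tk2+/+ tissues from 3 to 9 and from 9 to 22, and those between Tk2-/- tissues from 56 to 71 and from 1 to 1. The subunit difference ran from −0.015 to 0.08 in muscle, from −0.059 to −0.002 in heart, from 0.029 to 0.113 for the difference between effects, from −0.085 to −0.027 between Tk2+/+ tissues and from −0.062 to −0.01 between Tk2-/- tissues. No named call reversed in the contrast for which its member was named, and where a result moved the cause was not tested. Mrps30 in heart, named for muscle, changed sign with quantile normalization.

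Arrays with the same replicate number did not deviate together (correlations from −0.19 to 0.13), so no pairing by number was seen. With so few arrays per group, these correlations cannot exclude one. With the replicate number as a block the counts were 4 and 9 in muscle, 0 and 74 in heart, 66 and 0 for the difference between effects, 6 and 17 between Tk2+/+ tissues and 67 and 1 between Tk2-/- tissues. Signals near the offset limit the dimmest members most.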

Other observations

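Further probe sets of the members hold values that belong to none of the comparisons above. Mrpl51 has a dimmer probe set numbered among its own chromosome, which averaged 272 in Tk2-/- muscle and 612 in Tk2+/+ muscle (log2 fold change −1.22, limma adjusted p = 0.00835), and 333 in Tk2-/- heart and 956 in Tk2+/+ heart (−1.56, adjusted p = 0.000379). Its brighter probe set, used above, gave −0.21 in muscle (adjusted p = 0.432) and −1.03 in heart (adjusted p = 4.86e-05). Whether Mrpl51 was called lower in muscle thus depended on the probe set, and by the dimmer one its fall was larger than that of Mrpl19 (−0.86). For Mrps33 and Mrpl27 the further probe sets gave values near those of the probe set used, −0.17 against −0.17 and 0.07 against 0.01 in muscle, and −0.94 against −0.94 and −0.72 against −0.80 in heart.

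Some probe sets carry a member's symbol together with that of another gene, and their signal cannot be given to either. The probe set of Mrps6 and Slc5a3 averaged 228 ± 23.3 in Tk2-/- muscle and 349 ± 38.8 in Tk2+/+ muscle (SD, n = 3 each), that of Mrpl43 and Sema4g 452 ± 33.4 and 407 ± 49.5, that of Mrpl24 and Rrnad1 243 ± 46.2 and 248 ± 52.8, and that of Mrpl53 and Ccdc142 239.6 ± 25.9 and 286 ± 35.2. The brighter probe set of Mrpl41 and Dph7 averaged 173 ± 26.1 in Tk2-/- muscle and 99.1 ± 15.1 in Tk2+/+ muscle, and that of Mrpl48 and Rab6a 335 ± 13.8 and 511 ± 51.0, so both lay on the same side as the probe set used for the member. The dimmer probe set of Mrpl41 and Dph7 lay on the other side, with 80.65 ± 1.03 in Tk2-/- muscle and 91.72 ± 4.52 in Tk2+/+ muscle. That of Mrps36 and Sgk3 averaged 258.7 ± 25.1 in Tk2-/- muscle and 404.6 ± 93.7 in Tk2+/+ muscle. The dim probe set of Mrpl19 and Gcfc2 averaged 29.6 ± 6.83 in Tk2-/- muscle and 34.6 ± 5.07 in Tk2+/+ muscle. Its arrays overlapped, so it showed no clear fall.

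Promoter windows of 22 members overlapped that of a gene on the opposite strand. Mrpl46 and Mrps11 were the only pair of members among them, and had log2 fold changes of −1.11 and −1.10 in heart and of −0.28 and −0.07 in muscle. Neighbours outside the family were close in muscle for some pairs and apart for others: Mrps27 gave −0.08 and Ptcd2 −0.09, and Mrps7 gave 0.05 and Gga3 −0.04, whereas Mrpl18 gave −0.52 and Tcp1 0.27, and Mrpl49 gave −0.52 and Fau 0.14. The differences were not tested.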
